A study of Homo sapiens with 30 samples.

Results

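Loss of the mitochondrial pyruvate carrier subunit MPC1 was examined for RNA changes shared by 3 human acute myeloid leukemia (AML) lines, MV4-11, Molm-14 and THP-1. The comparison took all 18 libraries of the MPC1 knockout series, of 30 libraries in the study, and estimated 1 average difference between knockout (KO) and empty vector (EV) cells with the cell line as an additive term. Genes past the test whose log2 fold change had the same sign in MV4-11, in Molm-14 and in THP-1 are called common genes here. There were 9 KO and 9 EV libraries, in 6 groups with n = 3 libraries each. KO cells had received the lentiCRISPRv2 vector, which brings Cas9, with a GFP marker and 1 guide against MPC1, and EV cells a nontargeting empty vector. Whether that vector also expressed Cas9 is not given in the sources used here, so the effects of Cas9 and of MPC1 loss cannot be told apart if it did not. MV4-11 and Molm-14 carry an internal tandem duplication of FLT3, THP-1 is a monocytic AML line without it, and all 3 lines carry a rearranged KMT2A gene. Whether the KO cells were a pool or a single clone, and whether the 3 libraries of a group came from separate cultures, is not given in the sources used here. The p-values therefore measure the spread between these libraries, which may be technical. The question of the comparison was how lower oxidative phosphorylation (OXPHOS) through loss of MPC1 changes RNA in AML cells. The other 12 libraries, of MV4-11 and Molm-14 with the miR-1 hairpin overexpressed (OE) or with an EV, did not enter the calls and serve only as a separate readout.

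MPC1 and MPC2 together form the carrier that brings pyruvate, the end product of glycolysis, across the inner mitochondrial membrane, where it feeds the TCA cycle. When less pyruvate enters, cells can draw on glutamine, fatty acids or amino acids in its place and can turn more pyruvate into lactate. The alpha-arrestins TXNIP and ARRDC4 sit at a further point of this biology. They limit glucose uptake, and their genes are classical targets of the MondoA and ChREBP factors, which sense phosphorylated sugars and bind carbohydrate response elements in promoters.

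Total counts ran from 5339360 to 9106478 in the EV libraries and from 5832662 to 7881126 in the KO libraries. The mitochondrial genome contributed between 0.177% and 0.452% of the counts in EV and between 0.140% and 0.298% in KO libraries. Pairs of libraries of 1 group differed by more than counting noise in all 18 pairs (chi-square per degree of freedom 1.498 to 11.8). The summed level of 8 myeloid leukemia markers was 1832 to 9203 counts-per-million (CPM) in EV and 2105 to 8469 CPM in KO libraries. The T cell markers summed to at most 0.469 CPM, with 3 of 5 at 0 in all 18 libraries, and the erythroid markers to at most 0.266 CPM. Fibroblast markers reached 1.33 CPM, megakaryocyte markers 11.3 CPM, epithelial markers 35.8 CPM and B cell markers 56.6 CPM. Within a line, 4 summed marker levels did not overlap between EV and KO libraries. Every marker list was compared in each line and no background share was computed, so this count is no finding of its own. In Molm-14 the myeloid markers were at 1832 to 2060 CPM in EV and 2249 to 2345 CPM in KO libraries, the B cell markers at 38.3 to 56.6 and 27.7 to 36.2 CPM, and the fibroblast markers at 0.788 to 0.923 and 0.315 to 0.625 CPM. In MV4-11 the epithelial markers were at 3.23 to 3.95 CPM in EV and 5.26 to 7.02 CPM in KO libraries. The part of these differences in the results was not tested. A count of 0 allows up to 3 counts, or 0.329 to 0.562 CPM in these libraries, and covers counting error only. The Molm-14 fibroblast sums lie around that range.

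MPC1 (ENSG00000060762, chromosome 6, 166364919 to 166383013, minus strand, GRCh38), the targeted gene, was measured first because it checks the labels. In MV4-11, MPC1 read 56.4, 58.3 and 53.7 CPM in the EV libraries and 26, 24.8 and 23.5 CPM in the KO libraries. In Molm-14, MPC1 read 80.05, 79 and 72.9 CPM in the EV libraries and 33.2, 41 and 38.1 CPM in the KO libraries. In THP-1, MPC1 read 100.01, 100.3 and 90.6 CPM in the EV libraries and 58.9, 53.2 and 50.3 CPM in the KO libraries. Every KO library lay below every EV library of its line, so the labels and the targeted gene match in all 3 lines, and MPC1 RNA remained present in each KO library. The average log2 fold change of MPC1 was -1.01 (SE 0.0601, edgeR FDR = 3.42e-12), with -1.18 in MV4-11, -1.04 in Molm-14 and -0.84 in THP-1, and the lines did not differ past the threshold (edgeR FDR of the difference = 0.388). It stayed between -1.05 and -0.99 when any 1 library was left out. MPC2, the partner subunit, was at 68.7 ± 9.95 CPM (SD, n = 3) in MV4-11 EV and 85.5 ± 4.37 CPM in MV4-11 KO cells. Its average change of 0.11 (edgeR FDR = 0.341) did not pass the threshold, and its changes of 0.31 in MV4-11, -0.15 in Molm-14 and 0.16 in THP-1 had no common sign.

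Of 14490 genes tested, 367 (2.53%) were called at a false discovery rate (FDR) under 5%, with 199 higher (1.37%) and 168 lower (1.16%) in KO cells, and 2940 genes had an unadjusted p under 0.05. Among the 367, 317 had the same sign in the 3 lines, 176 of them higher and 141 lower. This is 86.4% of the called genes, beside 35.6% of all tested genes, and the share is no finding of its own because the call and the signs come from the same libraries. The changes were small. The median size of the average log2 fold change over the common genes was 0.34, and 15 of the 317 reached 2-fold. MPC1 itself was the 1 gene at 2-fold whose mean over the libraries reached 100 counts. The common genes held 296 protein coding genes and 16 long noncoding RNAs, of which 8 were higher and 8 lower.

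The 3 lines did not carry the common changes equally. The median size of the log2 fold change over the 317 genes was 0.40 in MV4-11, 0.36 in Molm-14 and 0.25 in THP-1. The change was largest in MV4-11 for 161 genes, in Molm-14 for 117 and in THP-1 for 39, and it was smallest in THP-1 for 162. Tested in 1 line alone within the same model, 138 of the 317 passed the FDR in MV4-11, 98 in Molm-14 and 7 in THP-1. No line passed on its own for 113 genes, 1 line for 167 and 2 lines for 35. MPC1 and ARRDC4 were the 2 genes past the FDR in each of the 3 lines. KO and EV libraries did not overlap in any of the 3 lines for 48 of the 317 common genes (30 higher, 18 lower). These are among the 59 genes (0.407% of all tested) without such overlap. This count is no finding of its own either, because the calls and the overlap come from the same libraries. Some of the genes described below as without overlap were named for that trait. In 21 common genes at least 1 line had no library over 3 counts, so that the sign in that line carries little information.

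**Figure D1:**
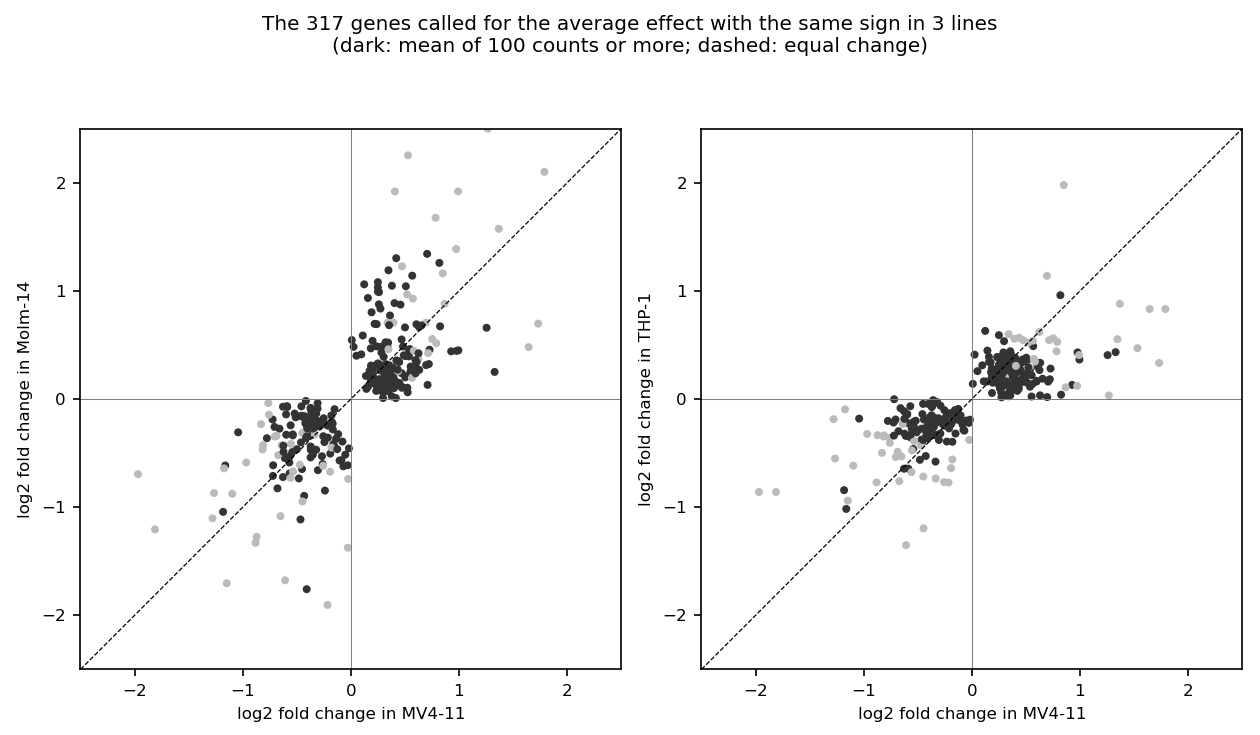
Log2 fold change (KO against EV) of the 317 common genes in Molm-14 (left) and THP-1 (right) on the vertical axes, against MV4-11 on the horizontal axes; each point is a gene, dark points have a mean of 100 counts or more and the dashed line marks equal change. The rule on signs places all points in 2 quadrants, and what can be read is the size: most points in the THP-1 panel lie nearer to 0 on the vertical axis, with a median size of 0.25 against 0.40 in MV4-11. Beyond the axes lie 9 genes in the left panel and 7 in the right.

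A separate check asked how genes called in 2 of the lines moved in the remaining line, whose libraries had no part in the call. Of 140 genes called in Molm-14 and THP-1 together, 91 (65.0%, exact 95% binomial interval 56.5 to 72.9) had the same sign in MV4-11, beside 59.4% of all tested genes. Of 203 genes called in MV4-11 and THP-1, 125 (61.6%, interval 54.5 to 68.3) had the same sign in Molm-14, beside 55.5% of all tested genes. Of 338 genes called in MV4-11 and Molm-14, 225 (66.6%, interval 61.3 to 71.6) had the same sign in THP-1, beside 62.5% of all tested genes. Taken 1 line at a time, the share of all genes lay inside the interval of the called genes. Pooled over the 3 lines, 441 of 681 entries (64.8%, interval 61.0 to 68.3) had the same sign. The 59.1% of all genes, a plain mean of the 3 lines, lay below that interval. A gene enters the pool once for each pair of lines that calls it, as MPC1 did in all 3. The intervals treat genes as independent, which they are not, and the pooled one also treats repeated genes and shared libraries as independent. Nothing is concluded from the pooled interval for that reason. Among genes whose mean reached 10 counts in every line, the shares were 73.2% against 61.9% of all in MV4-11, 61.3% against 56.9% in Molm-14 and 69.4% against 65.0% in THP-1. The median log2 fold change in the remaining line was 0.17, 0.10 and 0.07 in MV4-11, Molm-14 and THP-1 for genes called higher. For genes called lower it was -0.04, -0.01 and -0.12.

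**Figure D2:**
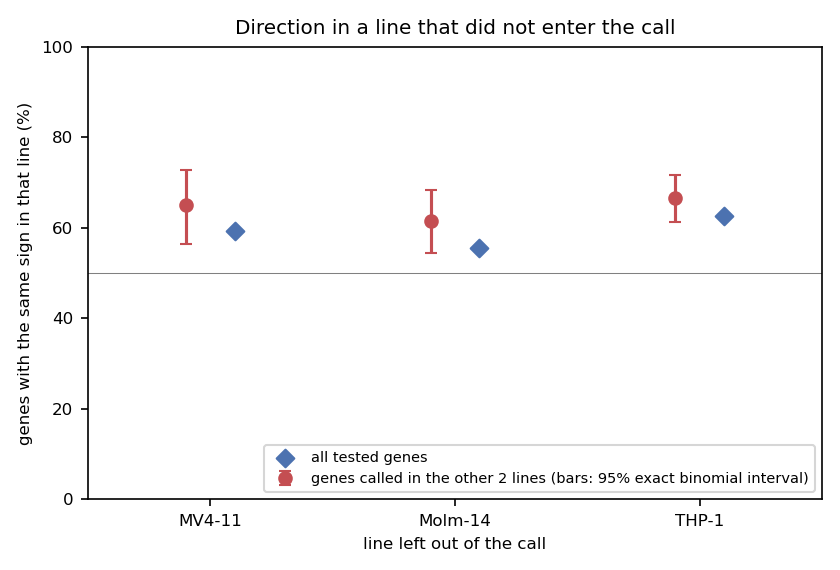
Percent of genes with the same sign in the line named on the horizontal axis as in the other 2 lines, for genes called in those 2 lines (red circles, bars are exact 95% binomial intervals) and for all tested genes (blue diamonds). The red circles sit at 65.0%, 61.6% and 66.6%, and each interval reaches below the blue diamond of the same line, at 59.4%, 55.5% and 62.5%.

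The number of common genes depended on single libraries. Leaving out 1 library at a time gave between 160 and 556 common genes, and 134 of the 317 (84 higher, 50 lower) stayed called in each of these 18 fits. The count moved by more than 1.5 times without EV 1 (539), EV 2 (190), EV 3 (180), KO 1 (198) or KO 2 (160) of MV4-11, without EV 2 of Molm-14 (177) and without KO 3 of THP-1 (556). Without MV4-11, 67 of the 317 were still called, without Molm-14 98, and without THP-1 169. The common genes also differed in length and base composition. The median exon length was 4303 bases for those higher and 8416 bases for those lower in KO cells, beside 5047 bases over all tested genes, and the median GC content was 47.9%, 45.8% and 47.3%. The mean log2 CPM of long genes (7865 bases or more) less that of short genes (2944 bases or less) was taken in each library. Relative to the mean of the libraries of the same line, it ran from -0.08 to 0.14 in EV and from -0.13 to 0.06 in KO libraries. With the trend on length removed, 275 of the 317 remained common genes, and with the trend on GC content removed, 309.

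An arrestin came next to MPC1 among the named falls. ARRDC4 (ENSG00000140450, chromosome 15, 97960703 to 97973833, plus strand), an alpha-arrestin that limits glucose uptake, read 39.5, 40.4 and 33.9 CPM in the EV libraries and 17.2, 16.8 and 17 CPM in the KO libraries in MV4-11. In Molm-14, ARRDC4 read 14.5, 15.5 and 15 CPM in the EV libraries and 9.77, 9.58 and 10.2 CPM in the KO libraries. In THP-1, ARRDC4 read 81.5, 74.2 and 72.7 CPM in the EV libraries and 39.6, 36.7 and 36.7 CPM in the KO libraries. KO and EV libraries were apart in all 3 lines. The average log2 fold change was -0.97 (SE 0.0722, edgeR FDR = 5.97e-10), with -1.16 in MV4-11, -0.61 in Molm-14 and -1.02 in THP-1, and it passed the threshold under all 29 alternative settings. With RNA of whole cultures, less RNA per cell and fewer cells with the RNA cannot be told apart.

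TXNIP (ENSG00000265972, chromosome 1, 145992435 to 145996579, minus strand), the best known glucose-responsive arrestin, which also binds thioredoxin, read 497, 469 and 438 CPM in the EV libraries and 318, 312 and 304 CPM in the KO libraries in MV4-11. In Molm-14, TXNIP read 216, 191 and 213 CPM in the EV libraries and 197, 196 and 197 CPM in the KO libraries. In THP-1, TXNIP read 789, 775 and 669 CPM in the EV libraries and 489, 508 and 433 CPM in the KO libraries. The groups were far apart in MV4-11 and THP-1 and overlapped in Molm-14, where the group means differed by less than the spread of the EV libraries. The average log2 fold change of TXNIP was -0.44 (SE 0.0681, edgeR FDR = 0.000776), and the effect differed between lines (edgeR FDR = 0.00775), with -0.59 in MV4-11, -0.07 in Molm-14 and -0.64 in THP-1. ARRDC3 (ENSG00000113369, chromosome 5, 91368631 to 91383317, minus strand), an arrestin of the same family that acts on membrane receptors, moved the other way. In MV4-11, ARRDC3 read 9.87, 12.8 and 10.8 CPM in the EV libraries and 25.5, 23.2 and 17.3 CPM in the KO libraries. In Molm-14, ARRDC3 read 12.6, 14.4 and 13.2 CPM in the EV libraries and 18.3, 20.1 and 16.6 CPM in the KO libraries. In THP-1, ARRDC3 read 114, 125 and 81.4 CPM in the EV libraries and 149, 164 and 119 CPM in the KO libraries, so the groups overlapped in THP-1 alone. All 3 same-numbered pairs were higher in KO there, but the labels state no pairing of libraries. The average log2 fold change of ARRDC3 was 0.58 (SE 0.105, edgeR FDR = 0.00368). ARRDC3 overlaps an antisense gene, with which it may share reads because the use of strand in the counting is not stated. Without MV4-11, neither TXNIP nor ARRDC3 (edgeR FDR = 0.0509) was called. Of the 8 tested members of the list of arrestins and glucose-sensing factors, 1 rose and 2 fell. This is 37.5% called, beside 2.53% of all tested genes, and the list median was 0.01, beside 0.01 over all tested genes.

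The promoters of the 2 arrestins that fell are shown because the 2 genes are classical targets in this biology. They are RefSeq sequences on GRCh38.p14, from 250 bases before to 50 bases after the start of the gene, and capitals mark the motif found in each. In TXNIP (chr1:145996530-145996829, minus strand) the capitals are a match to the carbohydrate response element CACGNGNNNNNCNNGNG, which starts 88 bases before the start of the gene. In ARRDC4 (chr15:97960453-97960752, plus strand) they are the E-box CACGTG, which starts 210 bases before it. The ARRDC4 promoter held no match to the carbohydrate response element, so the marked motifs differ between the 2 genes. The promoter of ARRDC3, which rose, held neither motif.
TXNIP: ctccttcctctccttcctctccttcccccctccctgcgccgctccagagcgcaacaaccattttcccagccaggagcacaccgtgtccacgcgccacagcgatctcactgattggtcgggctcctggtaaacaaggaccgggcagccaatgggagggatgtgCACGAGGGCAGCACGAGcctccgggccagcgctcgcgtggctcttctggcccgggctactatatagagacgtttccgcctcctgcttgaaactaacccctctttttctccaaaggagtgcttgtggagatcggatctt
ARRDC4: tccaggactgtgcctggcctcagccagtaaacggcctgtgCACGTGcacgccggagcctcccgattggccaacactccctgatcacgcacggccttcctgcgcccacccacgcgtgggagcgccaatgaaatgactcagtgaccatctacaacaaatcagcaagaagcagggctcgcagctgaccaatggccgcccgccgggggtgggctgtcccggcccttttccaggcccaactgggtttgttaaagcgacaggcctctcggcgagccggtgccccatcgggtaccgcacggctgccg
Both motifs were searched on both strands of 35116 promoters, and a response element can contain an E-box, so that the motifs may overlap. The E-box was in 7.26% of all promoters and the carbohydrate response element in 1.69%. Among the common genes with a promoter in the table, 13 of 139 higher genes (9.35%) and 7 of 109 lower genes (6.42%) held an E-box. The carbohydrate response element was in 2 of the 139 (1.44%) and 1 of the 109 (0.917%). A match is a description of the letters, and no binding was measured.

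**Figure D3:**
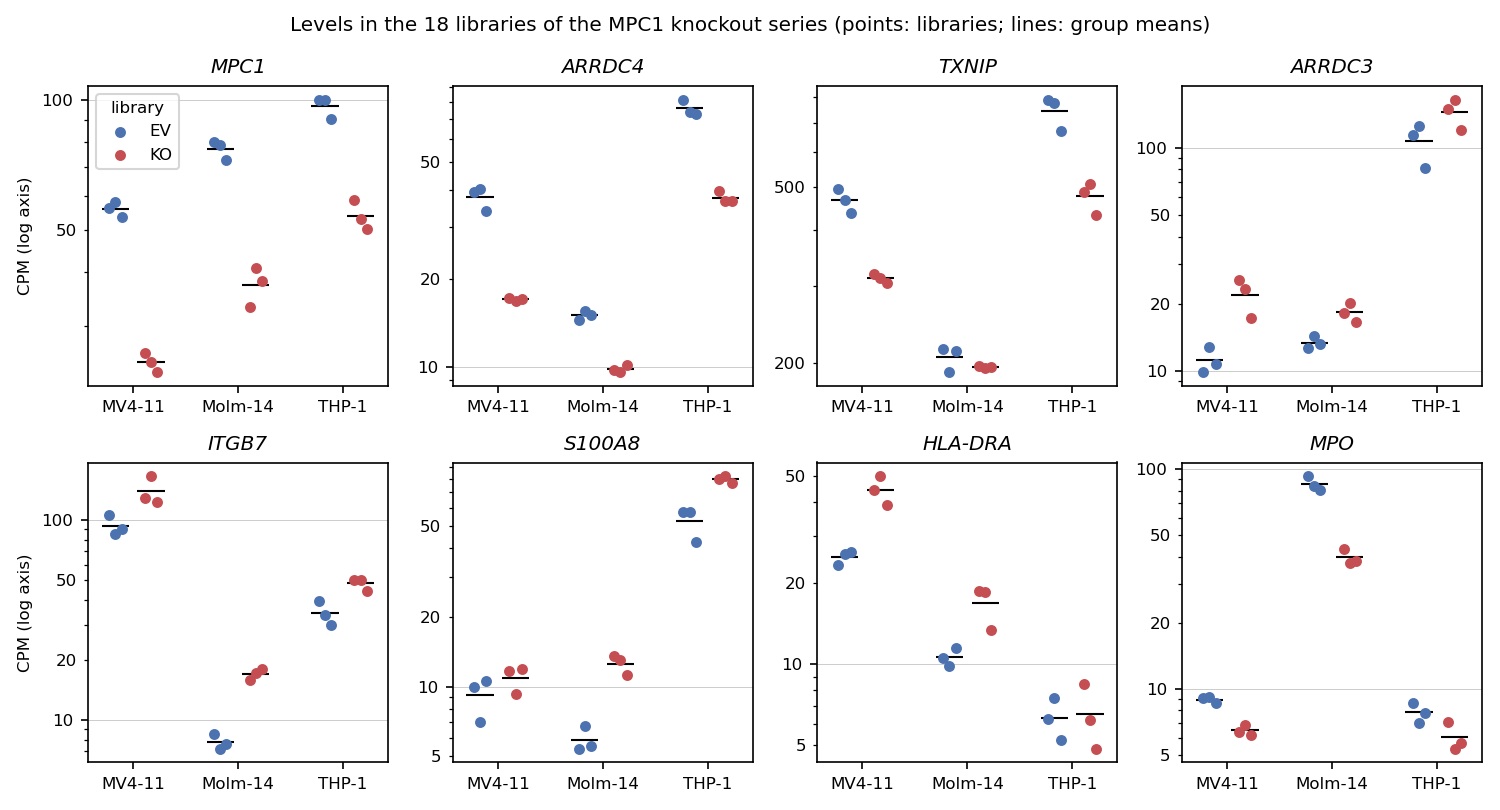
CPM (log axis) of 8 genes in each of the 18 libraries, by cell line, with EV libraries in blue, KO libraries in red and group means as black lines. MPC1 and ARRDC4 show KO libraries below EV libraries in each of the 3 lines and ITGB7 shows them above, while TXNIP overlaps in Molm-14 and HLA-DRA in THP-1.

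Other lists of pyruvate and fuel use had small medians. The share called was 8% of the pyruvate list, MPC1 included, 10% of glycolysis and glucose uptake and 17.6% of hypoxia-inducible targets. Over all tested genes it was 2.53%. In the list of pyruvate carrier and pyruvate fate genes, 2 of 25 tested members fell and none rose, with a median log2 fold change of 0.01, so that the list held MPC1 and 1 further call. That was PDK4, a kinase that switches off pyruvate dehydrogenase, and its count rests on THP-1, where PDK4 read 3.46, 3.44 and 3.08 CPM in the EV libraries and 1.39, 1.19 and 0.838 CPM in the KO libraries. PDK4 had no library over 3 counts in MV4-11 and was at 0 in all Molm-14 libraries, so it has no sign there. In glycolysis and glucose uptake, 2 of 20 rose, with a list median of 0.11. SLC2A1, the glucose transporter GLUT1, had an average log2 fold change of 0.23 (edgeR FDR = 0.0344) with 0.32 in MV4-11, 0.20 in Molm-14 and 0.15 in THP-1. PFKFB2, which makes the activator of phosphofructokinase, had 0.38 (edgeR FDR = 0.0445) and no library over 3 counts in Molm-14. These rises were weak, and 7 of the 18 leave-one-library-out fits did not call SLC2A1 and 14 did not call PFKFB2. Of 17 tested hypoxia-inducible targets 3 rose, with a list median of 0.06. DDIT4, an inhibitor of mTORC1 signalling, had 0.34 (edgeR FDR = 0.00717) with KO above EV in every library of the 3 lines. BNIP3L, a mitophagy receptor, had 0.22 (edgeR FDR = 0.0435) and was not called in 13 of the 18.

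Lists for the fuels that can replace pyruvate held 1 or 2 calls each, which describe single genes and not the lists. The share called was 3.57% of the TCA cycle list, 4.55% of glutamine metabolism, 4.35% of fatty acid oxidation and 6.06% of sterol synthesis. Over all tested genes it was 2.53%. In the TCA cycle and anaplerosis list 1 of 28 tested members rose (median 0.03), PCK2, the mitochondrial enzyme that makes phosphoenolpyruvate from oxaloacetate. Its average log2 fold change was 0.37 (edgeR FDR = 0.0214) with 0.60 in MV4-11, 0.29 in Molm-14 and 0.34 in THP-1, and KO lay above EV in each line without overlap. PCK2 was not called when any single line was left out. In glutamine metabolism 1 of 22 fell (median 0.04), SLC7A11, the exchanger that imports cystine for glutamate, with -0.29 (edgeR FDR = 0.00523) and -0.08 in MV4-11, -0.39 in Molm-14 and -0.28 in THP-1. SLC7A11 was also the 1 member called of 29 antioxidant genes (median 0.02). In the carnitine shuttle and fatty acid oxidation list 1 of 23 fell (median 0.05), CPT1A, which commits fatty acids to import into mitochondria. CPT1A read 298 ± 14.2 and 217 ± 13.4 CPM (SD, n = 3, EV and KO) in MV4-11. In Molm-14 its means were 94.8 ± 7.49 and 96.4 ± 3.92 CPM, and in THP-1 186 ± 16.9 and 132 ± 11.4 CPM. CPT1A was thus lower in MV4-11 and THP-1 and level in Molm-14, with an average of -0.32 (edgeR FDR = 0.00718) and a difference between lines past the threshold (edgeR FDR = 0.0270), and it is no common gene. In sterol and fatty acid synthesis 2 of 33 rose (median 0.04), ACAT2, which joins acetyl units, with 0.28 (edgeR FDR = 0.0394), and INSIG1, a sterol sensor, with 0.23 (edgeR FDR = 0.0410). Both changed by 0.01 in Molm-14 and 10 and 9 of the 18 leave-one-library-out fits did not call them.

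No member of the OXPHOS lists passed the test. Among 77 nuclear OXPHOS subunits, 69 had a log2 fold change above 0 and 39 were above 0 in each of the 3 lines, with a median of 0.09. Of all 14490 tested genes, 7562 were above 0 on average. In each of the 3 lines 2635 of all tested genes were above 0 and 2517 below, so 35.6% had 1 sign, beside 53.2% of the nuclear subunits. Signs of genes read in the same libraries are not independent. All 13 subunits encoded by the mitochondrial genome were below 0 on average and 10 of them in each line, with a median of -0.39, and the medians by line were -0.75 in MV4-11, -0.12 in Molm-14 and -0.28 in THP-1. Without MV4-11 the median was -0.21. The spread of these transcripts between libraries was wide. MT-CO1, a subunit of complex IV, read 607, 1221 and 1034 CPM in the EV libraries and 503, 443 and 623 CPM in the KO libraries in MV4-11, so that EV 1 alone lay inside the KO range. Its average log2 fold change of -0.39 (edgeR FDR = 0.240) did not pass. Of 76 mitochondrial ribosomal proteins none was called and 64 were above 0 (median 0.09). Of 79 cytosolic ribosomal proteins, 71 were above 0, 55 of them in each line (median 0.13), and 1 was called. That was RPL10A, with 0.22 (edgeR FDR = 0.0499), a call that 11 of the 18 leave-one-library-out fits did not give. An unadjusted p under 0.05 was found for 26 nuclear and 8 mitochondrially encoded OXPHOS subunits, 14 mitochondrial ribosomal proteins and 41 cytosolic ones, and DESeq2 called 2, 1, 0 and 2 of them. With the trend on exon length removed, the medians of these 4 lists were 0.08, -0.43, 0.07 and 0.11.

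HLA class I presentation was the list with the most rises. Of 17 tested HLA class I presentation genes 7 rose and none fell, with a median log2 fold change of 0.17 and 11 members above 0 in each of the 3 lines. The share called was 41.2%, beside 2.53% of all tested genes, and 70.6% had 1 sign in the 3 lines, beside 35.6%. B2M, the light chain shared by class I molecules, read 1071, 933 and 856 CPM in the EV libraries and 1382, 1253 and 1153 CPM in the KO libraries in MV4-11. In Molm-14, B2M read 862, 752 and 894 CPM in the EV libraries and 903, 933 and 987 CPM in the KO libraries. In THP-1, B2M read 1698, 1723 and 1304 CPM in the EV libraries and 1994, 2019 and 1614 CPM in the KO libraries. KO libraries lay above EV libraries in MV4-11 and Molm-14, by little in Molm-14, and the groups overlapped in THP-1. All 3 same-numbered pairs were higher in KO there, but the labels state no pairing. B2M had an average of 0.28 (SE 0.0639, edgeR FDR = 0.0172) on the log2 scale, with 0.41 in MV4-11, 0.17 in Molm-14 and 0.25 in THP-1. HLA-B had 0.35 (edgeR FDR = 0.00367) and differed between lines (edgeR FDR = 0.0153), with 0.22 in MV4-11, 0.70 in Molm-14 and 0.15 in THP-1. HLA-F, a nonclassical heavy chain with a mean of 29.4 counts, had the largest change of the list, 0.81 (edgeR FDR = 0.00178), with 0.70 in MV4-11, 0.71 in Molm-14 and 1.14 in THP-1. HLA-C had 0.28 (edgeR FDR = 0.00629) and HLA-E 0.23 (edgeR FDR = 0.00666). PSMB8, an immunoproteasome subunit, had 0.24 (edgeR FDR = 0.0195). Most of these calls needed single lines. Without Molm-14, HLA-B, HLA-C and HLA-E were not called, and without MV4-11, HLA-E, B2M and PSMB8 were not. Without THP-1, HLA-C and PSMB8 were not called. PSMB8 was also lost in 1 leave-one-library-out fit, and HLA-F was called under every alternative. HLA genes are near-identical in sequence, reads can be split among them, and changes of single HLA genes are uncertain for that reason. B2M and PSMB8 have no such close copies among the class I genes.

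Of 14 tested HLA class II genes 2 rose and none fell, with 10 members above 0 in each of the 3 lines and a median of 0.32. The share called was 14.3%, beside 2.53% of all tested genes, and 78.6% had 1 sign in the 3 lines, beside 35.6%. HLA-DRA (ENSG00000204287, chromosome 6, 32439878 to 32445046, plus strand), the invariant DR chain that carries peptides to CD4 T cells, read 23.4, 25.7 and 26.2 CPM in the EV libraries and 44.2, 49.999 and 39.2 CPM in the KO libraries in MV4-11. In Molm-14, HLA-DRA read 10.6, 9.9 and 11.5 CPM in the EV libraries and 18.7, 18.6 and 13.4 CPM in the KO libraries. In THP-1, HLA-DRA read 6.25, 7.48 and 5.25 CPM in the EV libraries and 8.48, 6.24 and 4.86 CPM in the KO libraries. HLA-DRA was clearly higher in the KO libraries of MV4-11 and Molm-14, and the groups overlapped in THP-1. By library number, KO was higher in THP-1 for number 1 and lower for numbers 2 and 3. Its average log2 fold change was 0.61 (SE 0.109, edgeR FDR = 0.00219), with 0.83 in MV4-11, 0.67 in Molm-14 and 0.04 in THP-1. HLA-DRB1, the partner beta chain, had 0.44 (edgeR FDR = 0.00508). Without MV4-11, neither HLA-DRA (edgeR FDR = 0.233) nor HLA-DRB1 was called. The interferon-stimulated genes, which often rise together with HLA class I, had 0 calls of 39 in edgeR with a median of 0.00. Of the 39, 8 had an unadjusted p under 0.05, DESeq2 called 0, and 5 had 1 sign in the 3 lines. That is 12.8%, beside 35.6% of all tested genes.

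Markers of monocyte maturation had 6 called rises and no called fall among 26 tested genes, with a median of 0.21 (0.08 without Molm-14). The share called was 23.1%, beside 2.53% of all tested genes. In each line 8 members were above 0 and 2 below, so 38.5% had 1 sign, near the 35.6% of all tested genes. Of the 26, 7 differed between lines, beside 1.61% of all tested genes. S100A8 (ENSG00000143546, chromosome 1, 153390032 to 153391073, minus strand), a calcium-binding alarmin of monocytes and neutrophils, read 9.98, 7.001 and 10.6 CPM in the EV libraries and 11.7, 9.27 and 11.9 CPM in the KO libraries in MV4-11. In Molm-14, S100A8 read 5.38, 6.75 and 5.54 CPM in the EV libraries and 13.5, 13 and 11.3 CPM in the KO libraries. In THP-1, S100A8 read 57.6, 57.6 and 42.6 CPM in the EV libraries and 79.8, 82.1 and 76.7 CPM in the KO libraries. KO and EV libraries were apart in Molm-14 and THP-1 and overlapped in MV4-11. The average log2 fold change of S100A8 was 0.62 (SE 0.102, edgeR FDR = 0.00102), and it passed under all 29 alternative settings. The other 5 had higher FDRs. IRF8, a transcription factor of the monocyte and dendritic cell fate, had 0.38 (edgeR FDR = 0.0305), but its changes of 0.27 in MV4-11, 0.84 in Molm-14 and 0.02 in THP-1 differed between lines (edgeR FDR = 0.000350). CCR1, a chemokine receptor, had 0.51 (edgeR FDR = 0.0410) and no common sign, with 0.53 in MV4-11, 1.17 in Molm-14 and -0.06 in THP-1. CD86, a costimulatory ligand with a mean of 10.4 counts, had 0.93 (edgeR FDR = 0.0316), FCGR2A, an Fc receptor, 0.26 (edgeR FDR = 0.0327), and TLR4, the lipopolysaccharide receptor, 0.28 (edgeR FDR = 0.0301). Between 6 and 11 of the 18 leave-one-library-out fits did not call each of these 5.

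Proteins of the primary granules, which mark the promyelocyte stage, had 3 falls and no rise among 14 tested genes, with a median of -0.12. The share called was 21.4%, beside 2.53% of all tested genes, and 28.6% had 1 sign in the 3 lines, beside 35.6%. By line the median was -0.38 in MV4-11, -0.34 in Molm-14 and 0.10 in THP-1, and 5 of the 14 differed between lines, where 1.61% of all tested genes (233 genes) did. Without THP-1 the list median was -0.38, and without Molm-14 -0.07. MPO (ENSG00000005381, chromosome 17, 58269855 to 58280935, minus strand), the myeloperoxidase of these granules, read 9.05, 9.16 and 8.63 CPM in the EV libraries and 6.4, 6.89 and 6.16 CPM in the KO libraries in MV4-11. In Molm-14, MPO read 93, 84.1 and 80.7 CPM in the EV libraries and 43.5, 37.5 and 38.1 CPM in the KO libraries. In THP-1, MPO read 8.64, 7.03 and 7.79 CPM in the EV libraries and 7.1, 5.35 and 5.7 CPM in the KO libraries. MPO was lower on average in each line, most in Molm-14, the line with the most MPO, and passed the FDR on its own there alone (edgeR FDR = 0.0627 in MV4-11 and 0.576 in THP-1). KO and EV libraries overlapped in THP-1. All 3 same-numbered pairs were lower in KO there, but the labels state no pairing. The average log2 fold change of MPO was -0.79 (SE 0.0988, edgeR FDR = 2.14e-05), and the size differed between lines (edgeR FDR = 0.0307), with -0.46 in MV4-11, -1.11 in Molm-14 and -0.37 in THP-1. Without Molm-14 the average was not called (edgeR FDR = 0.0702). AZU1, the granule protein azurocidin, had -0.38 (edgeR FDR = 0.0122) with -0.70 in MV4-11, -0.26 in Molm-14 and -0.19 in THP-1. PRTN3, proteinase 3, had -0.44 (edgeR FDR = 0.0316), with means of 1075 ± 89.6 and 653 ± 97.1 CPM (SD, n = 3, EV and KO) in MV4-11. In THP-1 its means were 880.04 ± 109.7 and 879 ± 104 CPM, so PRTN3 was lower in MV4-11 and level in THP-1, and 10 of the 18 leave-one-library-out fits did not call it. KIT, the stem cell factor receptor of early progenitors, was the 1 call of 16 tested genes in the HOXA and MEIS1 list (median -0.02) and rose, with 0.50 (edgeR FDR = 0.0159) and 0.71 in MV4-11, 1.34 in Molm-14 and 0.16 in THP-1. The Molm-14 change of KIT came at low counts, with 0.336 to 1.13 CPM in EV and 2.03 to 2.26 CPM in KO libraries. KIT was not called without MV4-11 (edgeR FDR = 0.400) or without Molm-14 (edgeR FDR = 0.0539).

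Among common genes whose mean reached 100 counts, the 12 largest rises included adhesion and immune receptor genes. ITGB7 (ENSG00000139626, chromosome 12, 53191323 to 53207282, minus strand), the beta chain of the gut-homing integrin, read 106, 85.8 and 90.4 CPM in the EV libraries and 129, 166 and 123 CPM in the KO libraries in MV4-11. In Molm-14, ITGB7 read 8.58, 7.2 and 7.65 CPM in the EV libraries and 15.9, 17.3 and 18.1 CPM in the KO libraries. In THP-1, ITGB7 read 39.4, 33.6 and 29.9 CPM in the EV libraries and 50.4, 50.5 and 44.2 CPM in the KO libraries. The KO libraries were above the EV libraries in each line, at levels that differed widely between lines, and the average log2 fold change was 0.66 (SE 0.0857, edgeR FDR = 6.32e-05). SMIM14 (ENSG00000163683, chromosome 4, 39546336 to 39638902, minus strand), a small membrane protein, read 12.4, 16.6 and 15.4 CPM in the EV libraries and 39.7, 32.5 and 33.7 CPM in the KO libraries in MV4-11. In Molm-14, SMIM14 read 15, 13.2 and 13.8 CPM in the EV libraries and 19.7, 24.1 and 22.2 CPM in the KO libraries. In THP-1, SMIM14 read 13.8, 13.3 and 8.34 CPM in the EV libraries and 16.7, 15 and 16.1 CPM in the KO libraries. Again no KO library reached down to an EV library, although the gap in THP-1 was narrow. SMIM14 had an average log2 fold change of 0.81 (SE 0.111, edgeR FDR = 0.000132) with 1.26 in MV4-11, 0.66 in Molm-14 and 0.41 in THP-1. LY86, which partners a Toll-like receptor homolog on the cell surface, had 0.54 (edgeR FDR = 0.000954), also without overlap in any line, and ICAM3, a leukocyte adhesion ligand, 0.55 (edgeR FDR = 0.000776). S100A4 (ENSG00000196154, chromosome 1, 153543613 to 153550136, minus strand), a calcium-binding protein of motile cells, had 0.42 (SE 0.0672, edgeR FDR = 0.000931) without overlap, and its size differed between lines (edgeR FDR = 0.0280), with 0.36 in MV4-11, 0.77 in Molm-14 and 0.19 in THP-1. TRAPPC13, a subunit of a vesicle tethering complex, had 0.36 (edgeR FDR = 0.000954) with 0.47 in MV4-11, 0.24 in Molm-14 and 0.37 in THP-1. ITGB7, SMIM14 and ICAM3 each overlap a gene on the opposite strand, and reads may be shared between the 2 because the use of strand in the counting is not stated. TRAPPC13 overlaps TRIM23 and SGTB on the opposite strand and SHLD3 on its own strand, so its reads may be shared as well.

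The remaining rises were less even. CLEC10A, a galactose-binding lectin of dendritic cells and macrophages, had the largest named rise, 0.87 (edgeR FDR = 0.000954), which rests on MV4-11, at 27.6 ± 4.53 and 49 ± 3.08 CPM (SD, n = 3, EV and KO). In Molm-14 CLEC10A was at 0.504 to 1.01 CPM in EV and 1.33 to 2.03 CPM in KO libraries, and in THP-1 no library passed 0.771 CPM. SPINT2, an inhibitor of serine proteases, had 0.58 (edgeR FDR = 0.00562) with 0.73 in MV4-11, 0.46 in Molm-14 and 0.28 in THP-1. Its Molm-14 means were low, at 1.78 ± 0.745 and 2.40 ± 1.17 CPM (SD, n = 3, EV and KO), and without MV4-11 it was not called (edgeR FDR = 0.518). GAPT, a membrane adaptor of lymphoid and myeloid cells, had 0.51 (edgeR FDR = 0.00941) with 1.00 in MV4-11, 0.45 in Molm-14 and 0.37 in THP-1. NAPSB, a transcribed pseudogene of the aspartic protease napsin A, had 0.55 (edgeR FDR = 0.0110) with 0.51 in MV4-11, 1.04 in Molm-14 and 0.23 in THP-1, and its reads may be shared with NAPSA. NAPSB also overlaps NR1H2 on the opposite strand. In the fit with a mean for each group and equal weights of lines, CLEC10A (edgeR FDR = 0.119) and SPINT2 (0.0528) no longer passed.

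The falls named by the same rule were led by MPC1, ARRDC4 and MPO. RET (ENSG00000165731, chromosome 10, 43077064 to 43130351, plus strand), a receptor tyrosine kinase for ligands of the GDNF family, read 2.79, 3.77 and 3.85 CPM in the EV libraries and 1.85, 1.75 and 3.39 CPM in the KO libraries in MV4-11. In Molm-14, RET read 238, 277 and 224 CPM in the EV libraries and 184, 175 and 167 CPM in the KO libraries. In THP-1, RET read 93.1, 96.7 and 115 CPM in the EV libraries and 69.7, 65.6 and 86.1 CPM in the KO libraries. KO libraries lay below EV libraries in Molm-14 and THP-1 and overlapped at low counts in MV4-11. RET had an average log2 fold change of -0.48 (SE 0.0749, edgeR FDR = 0.000714), and its changes of -0.54 in MV4-11, -0.49 in Molm-14 and -0.46 in THP-1 were close to each other (edgeR FDR of the difference = 1.00). NAV3 (ENSG00000067798, chromosome 12, 77324641 to 78213010, plus strand), a microtubule-associated navigator protein, had -0.41 (SE 0.0652, edgeR FDR = 0.000776) without overlap in any line and with -0.43 in MV4-11, -0.89 in Molm-14 and -0.28 in THP-1. TTN-AS1, the antisense transcript of the titin locus, had -0.37 (edgeR FDR = 0.000776) without overlap and with -0.37 in MV4-11, -0.44 in Molm-14 and -0.29 in THP-1, and PRICKLE1, of the planar cell polarity pathway, -0.48 (edgeR FDR = 0.00512), also without overlap. PTPRG, a receptor tyrosine phosphatase, had -0.51 (edgeR FDR = 0.0257) and differed between lines (edgeR FDR = 0.0196), with -0.41 in MV4-11, -1.76 in Molm-14 and -0.30 in THP-1. On the opposite strand, PRICKLE1 overlaps PPHLN1, and PTPRG overlaps RPL10AP6 and PTPRG-AS1, so reads may be shared. MUC19, a gel-forming mucin gene, had -0.52 (edgeR FDR = 0.00271) and changed little in Molm-14, with -0.63 in MV4-11, -0.07 in Molm-14 and -0.64 in THP-1.

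Other named falls were less secure. MSRB3, a methionine sulfoxide reductase, had -0.50 (edgeR FDR = 0.00629) with -0.78 in Molm-14 and -0.20 in THP-1, and SNTB2, a syntrophin, had -0.58 (edgeR FDR = 0.00308) with -0.69 and -0.35. In MV4-11 neither MSRB3 nor SNTB2 had a library over 3 counts, so their sign there says little. SNTB2 overlaps UTP4 on the same strand and may share reads with it. TRERF1, a transcriptional regulator, had -0.58 (edgeR FDR = 0.0469), WASF1, an actin regulator, -0.55 (edgeR FDR = 0.0396), and ENSG00000279598, an unnamed gene inside TTN-AS1 that may share its reads, -0.57 (edgeR FDR = 0.0491). Of the 18 leave-one-library-out fits, 13, 11 and 13 did not call these 3, and 4 did not call PTPRG. The named genes held across all 29 alternatives were MPC1, ARRDC4, RET and TTN-AS1 among the falls. Among the rises they were SMIM14, ITGB7, S100A8, ICAM3, LY86, S100A4, TRAPPC13 and HLA-F.

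**Figure D4:**
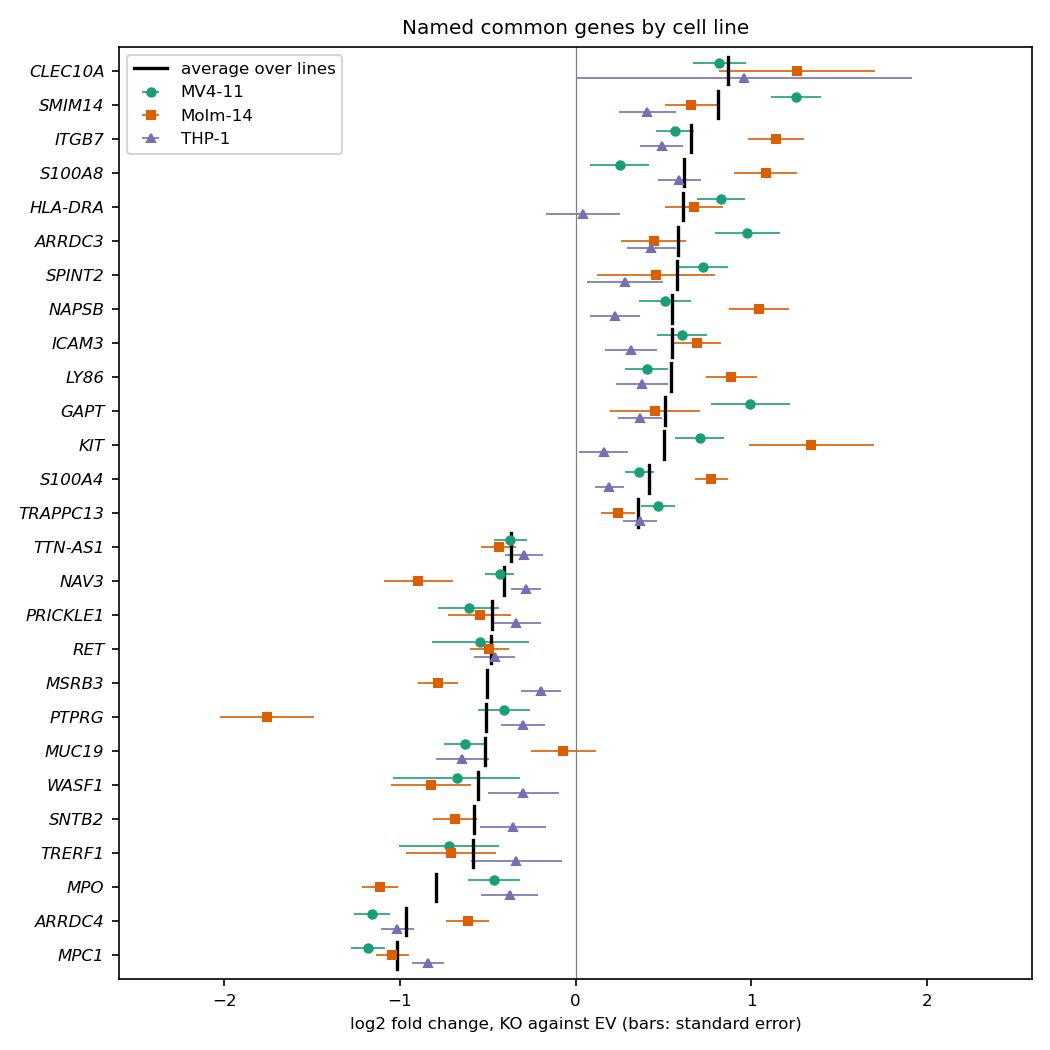
Log2 fold change (KO against EV) with its standard error for named common genes in MV4-11 (circles), Molm-14 (squares) and THP-1 (triangles), with the average over the lines as a black bar; MSRB3 and SNTB2 have no point in MV4-11, where no library had over 3 counts. MPC1, ARRDC4, RET, TTN-AS1 and TRAPPC13 keep their 3 points on 1 side with errors clear of 0, while HLA-DRA in THP-1 (0.04) and MUC19 in Molm-14 (-0.07) sit at 0.

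Stress, growth and signalling lists held 1 to 4 calls each. The share called was 13.8% of the ATF4 list, 9.09% of the NF-kB list and 7.14% of the lysosome list. It was 5% of the one-carbon and nucleotide lists and 3.85% of the MAPK list, beside 2.53% of all tested genes. Of 29 tested genes of the ATF4 amino acid stress response 3 rose and 1 fell (median 0.11). These were DDIT4, PCK2 and SLC7A11, given above, and MTHFD2, a mitochondrial folate enzyme, with 0.19 (edgeR FDR = 0.0305). MTHFD2 was also the 1 rise of 20 one-carbon enzymes (median 0.06), and IMPDH2, the rate-limiting enzyme of guanine nucleotide synthesis, with 0.23 (edgeR FDR = 0.0312), was the 1 rise of 20 nucleotide synthesis genes (median 0.03). Of 22 inflammatory genes of NF-kB, IL1B, a monocyte cytokine, had 0.76 (edgeR FDR = 0.0130) and REL, an NF-kB subunit, -0.34 (edgeR FDR = 0.0216) (list median 0.16, and 0.04 without Molm-14). Leave-one-library-out fits that did not call these genes numbered 9 of 18 for MTHFD2, 8 for IMPDH2 and 5 for REL. CCND1, the G1 cyclin D1, rose alone of 26 MAPK feedback and immediate early genes, with 0.57 (edgeR FDR = 0.0214) and 0.39 in MV4-11, 0.71 in Molm-14 and 0.56 in THP-1 (list median -0.01). CCND1 was not called when any single line was left out. Of 28 lysosome and autophagy genes 2 rose (median 0.04), HEXA with 0.21 (edgeR FDR = 0.0495) and CTSL with 0.33 (edgeR FDR = 0.0498), each not called in 13 of the 18 leave-one-library-out fits. PTPRC, the pan-leukocyte antigen CD45, had 0.18 (edgeR FDR = 0.0305) and was, beside MPO, the other call among 7 tested myeloid leukemia markers (median -0.02), and 8 of the 18 fits without 1 library did not call it.

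Cell cycle, p53 and cell death genes gave no calls in edgeR. The counts were 0 of 52 DNA replication and cell cycle genes (median 0.06), 0 of 26 p53 targets (median 0.04) and 0 of 15 BCL2 family genes (median -0.04). An unadjusted p under 0.05 was found for 13, 5 and 3 of them, and DESeq2 called 1 in each list. Among the 18 tested genes that lie on chromosome 6 between MPC1 and the chromosome end, 9 were above 0 and 9 below, with a median of -0.01. The 1 call there was AFDN, an adaptor of cell junctions, with -0.28 (edgeR FDR = 0.0453) and -0.09 in MV4-11, -0.57 in Molm-14 and -0.23 in THP-1, and 13 of the 18 leave-one-library-out fits did not call it.

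**Figure D5:**
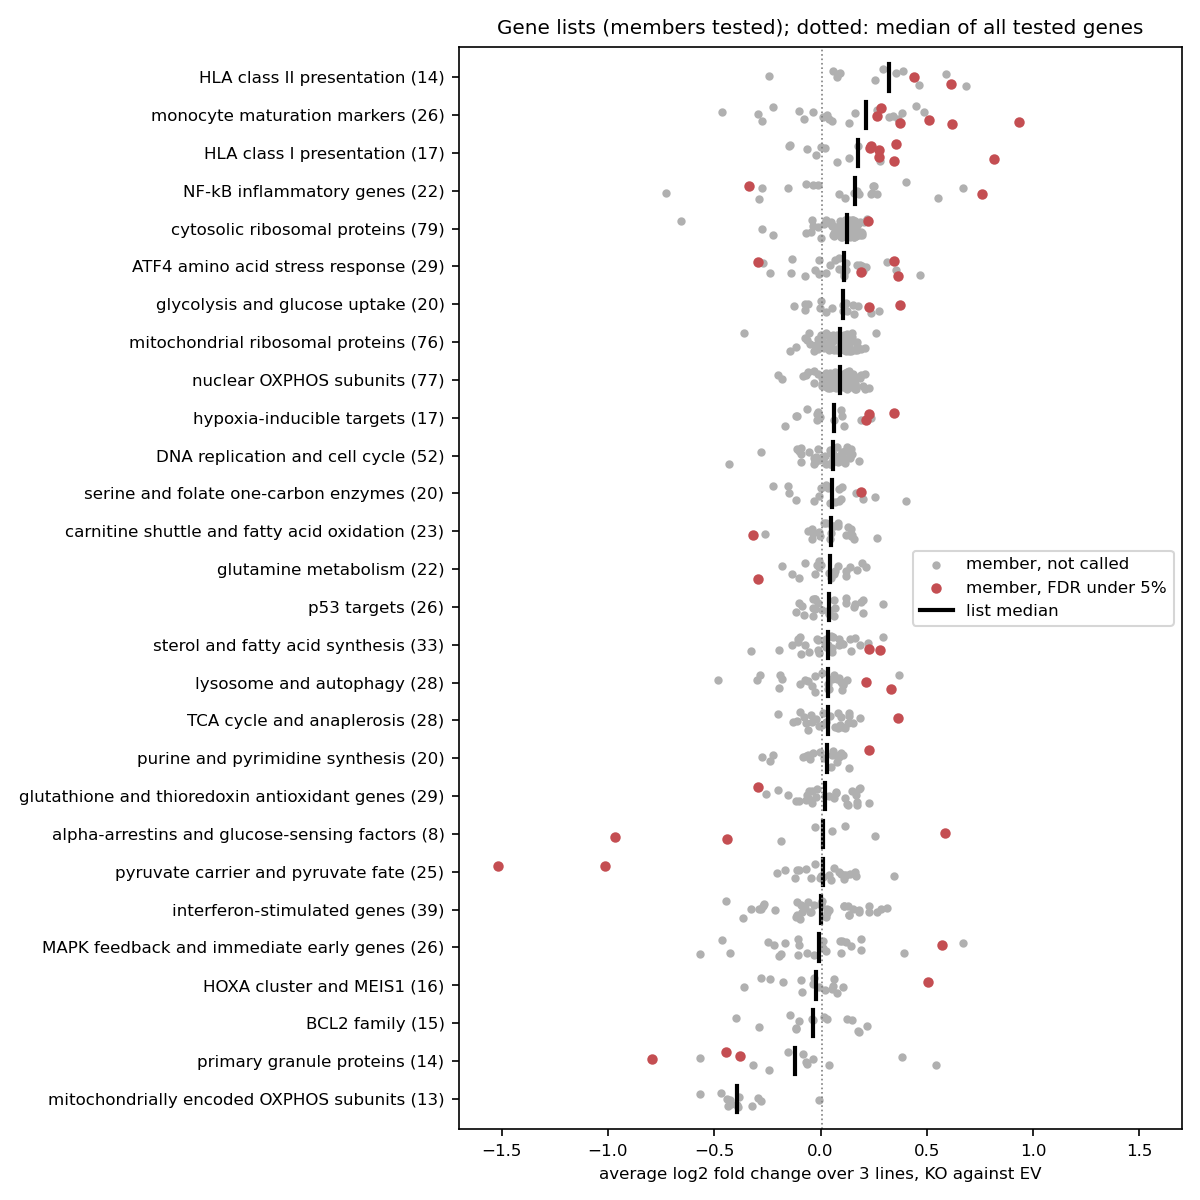
Average log2 fold change (KO against EV, over the 3 lines) of every tested member of the gene lists, one row per list, with called genes in colour, other genes in grey and the list median as a black bar. The class I and class II HLA lists (medians 0.17 and 0.32) and the monocyte list (0.21) sit to the right of 0, the mitochondrially encoded subunits (-0.39) and the primary granule proteins (-0.12) to the left, and the median of all tested genes is 0.01.

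An average over lines can be set by 1 line. Of the 367 called genes, 50 did not have the same sign in the 3 lines, and 34 of these had a mean under 10 counts in at least 1 line. IRF4, a transcription factor of B cells and dendritic cells, had the largest average of this kind, 1.22 (edgeR FDR = 8.08e-08). It rose in MV4-11, where it read 34.2, 32.4 and 34.4 CPM in the EV libraries and 82.2, 80.4 and 81.8 CPM in the KO libraries, and in THP-1 no library passed 0.665 CPM. ENPP2, the enzyme that makes lysophosphatidic acid, had 0.93 (edgeR FDR = 0.000598) and was likewise carried by MV4-11, with at most 0.473 CPM in Molm-14 and 0.133 CPM in THP-1. TNFRSF19, FMNL2 and SHISA2 fell on average, by 0.73, 0.74 and 0.82 on the log2 scale, through Molm-14, and each was under 1 CPM in MV4-11. Of the 50 genes, 12 differed between lines past the FDR.

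Over all tested genes, 233 (1.61%) had a KO effect that differed between lines, and 1893 had an unadjusted p under 0.05 in that test. The common genes held 25 of the 233. ITGA6, the laminin-binding alpha-6 integrin chain, had the lowest p of the test and shows what an average hides. In MV4-11, ITGA6 read 11.3, 8.75 and 7.56 CPM in the EV libraries and 15.9, 12 and 12.7 CPM in the KO libraries. In Molm-14, ITGA6 read 178, 169.7 and 192 CPM in the EV libraries and 48.2, 44.7 and 49.1 CPM in the KO libraries. ITGA6 rose in MV4-11 and fell in Molm-14, with 0.54 in MV4-11, -1.93 in Molm-14 and -0.18 in THP-1 (edgeR FDR of the difference = 4.52e-09), and its average of -0.80 (edgeR FDR = 0.159) was not called. The average was called in the fit with a mean for each group and equal weights of lines (edgeR FDR = 0.000135). That fit also takes the differences between lines out of the residual spread, and the part of the weights alone was not tested.

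The miR-1 libraries were read for the same genes, since MPC1 was not targeted there. In MV4-11 and Molm-14 together, 9 of 17542 tested genes (0.0513%) were called for the average OE effect, 3 higher and 6 lower, and 842 had an unadjusted p under 0.05. Of 174 common genes that rose in KO and were tested in these libraries, 104 were above 0 in OE cells, with a median log2 fold change of 0.01, and 1 was called. That was PPP1R3A, a regulatory subunit of protein phosphatase that binds glycogen, and it went the other way in OE cells, by -2.71 (edgeR FDR = 0.000161) after 0.87 in KO cells. Of 139 common genes that fell in KO, 61 were below 0 in OE cells, with a median of 0.01, and edgeR called none, as did DESeq2. Of all genes tested in both series, 56.0% of those higher in KO were above 0 in OE cells and 46.4% of those lower in KO were below 0. An unadjusted p under 0.05 was found for 12.6% of the common higher and 11.5% of the common lower genes, beside 4.84% of all genes tested in both series. MPC1 itself changed by 0.00 in OE cells. ARRDC4 and TXNIP, lower in KO cells, had OE changes of 0.13 (edgeR FDR = 0.999) and 0.14 (edgeR FDR = 0.643), neither past the threshold.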

How the data were processed

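RNA was sequenced in 18 libraries of the MPC1 knockout series and 12 of the miR-1 series, from stranded total RNA libraries depleted of ribosomal RNA per the labels. The deposited counts are whole reads per Ensembl gene, made by the authors with cutadapt 1.16, STAR 2.7.6a (GRCh38) and featureCounts 1.6.3. The study's methods name an Ensembl annotation and removal of optical duplicates, and the use of strand in the counting is not given in the sources used here. Symbols and positions came from GENCODE release 44, which held 56948 of the 58051 gene IDs.

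Counts were tested with edgeR 4.0.16 in R 4.3.3: filterByExpr by group, TMM factors, robust quasi-likelihood fit, Benjamini-Hochberg adjustment, FDR under 5%. The average effect came from a model with line and treatment as additive terms, in which lines with more counts weigh more. Changes by line and their difference came from a fit with a mean for each of the 6 groups. SE is the log2 fold change divided by the square root of F. CPM use TMM-scaled totals. The OE series was fitted in the same way on its own table.

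Named genes are MPC1 and MPC2, the 12 largest rises and 12 largest falls among common genes whose mean reached 100 counts, up to 5 in each direction without overlap in any line, 5 called genes with differing signs, 5 with the lowest p for a difference between lines, and called list members. Of the called list members, 1 is not reported here. The rule, the members and the lists were chosen with earlier results of these data known. The fits were tested on simulated data. Alternatives were DESeq2 1.42.0, RLE factors, no filter, a replicate block, and leaving out each library or line. A further one, called equal weights of lines, averaged the changes by line in the fit with a mean for each group.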

Additional observations from a re-analysis of the deposited data

Results flagged for a closer look

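The genes named by the rule include 9 whose KO effect differed between the 3 lines in the edgeR test of the difference itself. ITGA6 (edgeR FDR = 4.52e-09) changed by 0.54 in MV4-11, -1.93 in Molm-14 and -0.18 in THP-1 on the log2 scale. ADGRL3, an adhesion receptor (edgeR FDR = 4.88e-08), changed by -1.29 in MV4-11, -0.10 in Molm-14 and 0.04 in THP-1. FOXP2, a forkhead transcription factor (edgeR FDR = 5.35e-06), changed by 0.11 in MV4-11, -1.17 in Molm-14 and 0.04 in THP-1. The change of ADGRL3 was largest in MV4-11 and that of FOXP2 in Molm-14. TMEM263, a membrane protein (edgeR FDR = 5.40e-06), changed by 0.58 in MV4-11, -0.88 in Molm-14 and 0.04 in THP-1. THSD7A, a thrombospondin domain protein (edgeR FDR = 6.38e-06), changed by -1.05 in MV4-11, 0.08 in Molm-14 and -0.12 in THP-1. TMEM263 moved in opposite directions in MV4-11 and Molm-14, as ITGA6 did. In the fit with a mean for each group and equal weights of lines, the averages of ITGA6, ADGRL3, FOXP2 and THSD7A were called. Their edgeR FDRs were 0.000135, 4.63e-07, 0.000605 and 3.87e-05, and that of TMEM263 was not called (0.437). That fit also takes the differences between lines out of the residual spread, so these calls cannot be credited to the weights alone.

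The other 4 are common genes, for which the sign was shared and the size was not. MPO (edgeR FDR = 0.0307) changed by -0.46 in MV4-11, -1.11 in Molm-14 and -0.37 in THP-1. PTPRG (edgeR FDR = 0.0196) changed by -0.41 in MV4-11, -1.76 in Molm-14 and -0.30 in THP-1, and S100A4 (edgeR FDR = 0.0280) by 0.36 in MV4-11, 0.77 in Molm-14 and 0.19 in THP-1. All 3 changed most in Molm-14. MSRB3 (edgeR FDR = 0.0378) changed by -0.78 in Molm-14 and -0.20 in THP-1, and in MV4-11 no library had over 3 counts. The cause of these differences was not tested.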

How the results depend on the processing

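MPC1 kept its direction and passed the threshold under all 29 alternatives. The counts moved more. For the called, common and line-differing genes (367, 317 and 233), testing without a filter on low counts gave 858, 706 and 408, and the share with the same sign in the line outside the call was 69.5%, beside 64.8% pooled over lines. Leaving out 1 library at a time gave 194 to 628, 160 to 556 and 143 to 324, with shares of 58.6% to 68.0%. The line-differing count fell to 144 without MV4-11 EV 3, 155 without MV4-11 KO 1, 147 without Molm-14 EV 3 and 143 without Molm-14 KO 2. Without MV4-11 there were 116 called and 115 line-differing genes, without Molm-14 203 and 20. With the GC trend removed, an alternative chosen after seeing the data, 653 were called and 567 were common. With equal weights of lines, ENPP2 (-0.19, edgeR FDR = 0.702), TNFRSF19 (0.32, FDR = 0.831) and SHISA2 (0.32, FDR = 1.00) changed sign. The OE count went from 9 to 41 without the filter and to 5 to 11 with 1 library left out. The cause of these moves was not tested. DESeq2 (510, 457 and 335), RLE factors (358, 313 and 250) and the length trend removed, also chosen after seeing the data (371, 315 and 276), stayed within 1.5 times.

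Replicate numbers did not pair the samples over the 3 lines, and in THP-1 alone each same-numbered pair deviated together. Over 9824 genes, EV and KO libraries of the same number correlated by -0.52 to 0.19 in MV4-11, -0.25 to 0.27 in Molm-14 and 0.26 to 0.58 in THP-1. With a replicate block the counts were 416, 385 and 306, with 268 of the 317 kept. Named calls not given with this block were ENSG00000279598, WASF1, PTPRG, PFKFB2, CCR1, IRF8, PRTN3, HEXA and AFDN. A block in THP-1 alone, added after seeing the data, gave 528, 467 and 301, and did not call ENSG00000279598 and CCR1 among the named genes.

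Depths of 5339360 to 9106478 counts limit what low genes can show.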

Other observations

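Common genes of low count, outside the naming rule and picked after their values were seen, held larger changes than those named. LSP1, an actin-binding protein of leukocytes with a mean of 59.0 counts, had a rise without overlap. In MV4-11, LSP1 read 11, 8.48 and 8.17 CPM in the EV libraries and 20.3, 30.6 and 21.1 CPM in the KO libraries. In Molm-14, LSP1 read 1.18, 1.13 and 0.791 CPM in the EV libraries and 2.99, 4.26 and 1.88 CPM in the KO libraries. In THP-1, LSP1 read 3.32, 4.19 and 3.99 CPM in the EV libraries and 7.4, 6.83 and 6.87 CPM in the KO libraries. No KO library reached down to an EV library of its line, and the average log2 fold change was 1.25 (SE 0.139, edgeR FDR = 2.99e-06) with 1.37 in MV4-11, 1.58 in Molm-14 and 0.88 in THP-1. EPX, eosinophil peroxidase, a granule enzyme related to MPO, had -1.26 (edgeR FDR = 0.000546), a fall that rests on Molm-14, where it read 15.6, 14 and 14.1 CPM in the EV libraries and 5.99, 4.92 and 5.94 CPM in the KO libraries. In MV4-11 no library of EPX passed 0.617 CPM, and in THP-1 none had over 3 counts.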
